A study of Mus musculus with 90 samples.

Results

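The genes described here are 37 genes of glucose breakdown and of the response to low oxygen, measured by RNA sequencing in mouse T cells. They are a list of named genes, drawn up with earlier results of these data known and with no measured value in its rule. Their rows were read from a table of raw read counts for 23420 genes in 90 libraries. They fall into 7 roles. The roles of sugar breakdown are glucose transporters (Slc2a1, Slc2a3), upper glycolysis (Hk1, Hk2, Gpi1, Pfkl, Pfkm, Pfkp, Aldoa, Aldoc, Tpi1) and lower glycolysis (Gapdh, Pgk1, Pgam1, Eno1, Eno3, Pkm). Beside them stand the handling of pyruvate and lactate (Ldha, Ldhb, Slc16a1, Slc16a3, Pdk1) and the bifunctional enzymes that set the level of fructose 2,6-bisphosphate (Pfkfb3, Pfkfb4). The response to low oxygen is represented by the oxygen sensing system itself (Hif1a, Egln1, Egln3) and other known targets of hypoxia-inducible factor (Bnip3, Bnip3l, Vegfa, Ero1l, P4ha1, P4ha2, Ankrd37, Ddit4, Higd1a, Mxi1). All 37 have a row in the table.

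The study sorted regulatory T cells (Tregs) by whether they express the inhibitory cytokines interleukin 10 (IL10) and interleukin 35 (IL35, of which Ebi3 is a subunit), and sorted CD8 T cells from mice whose Tregs lack these cytokines. The Treg series has 30 libraries in 10 groups of 3, all from mice whose genotype is labelled WT. Double-negative (DN), IL10 and Ebi3 Tregs were each taken from the tumour, from a nondraining lymph node and from a source labelled naive T cell. The tissue of that source is not stated, and effector T cells (Teff) were also taken from it. The CD8 series has 60 libraries from 4 genotypes: yfp, used here as the reference (3 libraries per population), loss of Ebi3 in Tregs (labelled Ebi3L, 3), loss of Il10 (labelled Il10, 2) and loss of both (DKO, 4). Each genotype gave cells of the nondraining lymph node (NDLN) and 4 tumour populations sorted on the exhaustion markers PD1 and TIM3: neither marker (NEG), intermediate PD1 without TIM3 (INT), high PD1 without TIM3 (SP) and high PD1 with TIM3 (DP). The labels do not name the tumour model, strain, age, driver of the deletion or number of animals behind a library. Nothing in them ties the libraries of a group to different animals, and every p-value here therefore reflects only the spread among these libraries, which may be technical. The Treg and CD8 libraries were made with different versions of the cDNA kit (4 and 3), and the series were not tested against each other.

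Library totals ran from 9.73 M to 20.2 M counts in the Treg series and from 19.2 M to 47.7 M in the CD8 series. A count of 3, taken as the lowest level that can be told from none, is worth 0.148 to 0.308 CPM in the former and 0.0629 to 0.156 CPM in the latter. Levels are CPM (counts-per-million of the library total), and fold changes are log2 differences from edgeR with their standard error (SE). A gene is called when its Benjamini-Hochberg adjusted p over all genes tested is below 0.05. Foxp3 and Cd8a were higher in the cells labelled as Tregs and as CD8 cells. Levels of the cytokine and exhaustion markers used for sorting are not given here. Group means of Foxp3, the transcription factor of Tregs, lay between 45.9 and 93.1 CPM in the Treg groups against 24.4 CPM in Teff, and Cd8a lay between 892 and 1420 CPM in the CD8 groups against at most 5.37 CPM in the Treg series.

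Glycolysis splits glucose into pyruvate, which is either burned in mitochondria or reduced to lactate and exported; activated T cells use the second route even when oxygen is present. When oxygen is scarce, prolyl hydroxylases (Egln1, Egln3) no longer mark HIF1α for destruction, and the stabilised factor binds a short motif in the promoters of glucose transporters, nearly all glycolytic enzymes, lactate dehydrogenase A and survival and mitophagy genes. Pyruvate dehydrogenase kinase 1 (Pdk1) keeps pyruvate from being burned in mitochondria and is itself a well known HIF target. HIF1α is regulated mainly as a protein, so the RNA of Hif1a does not report its activity.

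The HIF binding motif can be read in the promoters of these genes. RefSeq promoters (GRCm38.p6, 250 bases before to 50 after each start) were at hand for 34 of the 37 genes, in 50 windows; Slc2a3, Bnip3l and Ero1l had no entry. ACGTG or GCGTG, searched on both strands, occurred in 41 of the 50 windows (82%) and in 43.8% of 32851 RefSeq promoters of the same length. The stricter ACGTG occurred in 58% against 19.6%, and CACGTG, which contains ACGTG on both strands and is also the E-box bound by MYC, in 12% against 7.15%. The windows were not matched on base composition, and a match describes letters, not binding. The promoters of 4 genes on which the results turn are given as the 250 bases before the start, with matches to ACGTG or GCGTG on either strand in capitals. Bnip3 and Ldha rose in tumour Tregs and in DP cells, and Pdk1 and Ldhb fell in some of the same comparisons. They lie at chr7:138909507-138909756 (minus strand), chr7:46845554-46845803 (plus), chr2:71872974-71873223 (plus) and chr6:142507958-142508207 (minus).
Bnip3: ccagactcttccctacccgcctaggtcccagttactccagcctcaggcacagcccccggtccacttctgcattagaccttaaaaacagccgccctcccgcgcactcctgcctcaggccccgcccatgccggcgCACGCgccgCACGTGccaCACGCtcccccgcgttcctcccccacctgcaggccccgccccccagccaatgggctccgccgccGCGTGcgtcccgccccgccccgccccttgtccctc
Ldha: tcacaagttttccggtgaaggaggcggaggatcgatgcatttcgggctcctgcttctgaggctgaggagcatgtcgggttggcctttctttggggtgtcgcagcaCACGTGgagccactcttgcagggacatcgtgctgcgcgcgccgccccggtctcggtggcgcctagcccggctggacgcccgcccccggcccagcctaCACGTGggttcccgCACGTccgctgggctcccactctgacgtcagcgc
Pdk1: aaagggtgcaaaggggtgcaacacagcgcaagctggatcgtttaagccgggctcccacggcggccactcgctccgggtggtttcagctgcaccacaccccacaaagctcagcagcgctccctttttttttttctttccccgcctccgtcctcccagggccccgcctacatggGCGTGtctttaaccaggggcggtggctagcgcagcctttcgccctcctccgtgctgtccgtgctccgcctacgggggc
Ldhb: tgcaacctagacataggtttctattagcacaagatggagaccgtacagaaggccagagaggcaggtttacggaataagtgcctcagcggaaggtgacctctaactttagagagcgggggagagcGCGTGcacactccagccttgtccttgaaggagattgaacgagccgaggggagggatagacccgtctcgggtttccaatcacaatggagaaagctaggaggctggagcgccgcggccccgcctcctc
Bnip3 and Ldha held 5 matches each, counting CACGTG once on each strand, and Pdk1 and Ldhb held 1 each, a GCGTG. GC content was 72.4% in the Bnip3 stretch, 67.2% in Ldha, 64% in Pdk1 and 56.4% in Ldhb. These promoters were chosen for how their genes behaved, so they cannot show whether match number goes with direction, which was not tested.

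The first comparison asked how Tregs in the tumour differ from Tregs of the same cytokine class in the nondraining node. In all 3 classes most of the 37 genes were higher in the tumour. Slc2a1, the enzymes Gpi1, Aldoa, Tpi1, Gapdh, Pgk1, Pkm and Ldha, Hif1a and the HIF targets Bnip3, Ero1l, Ankrd37, Higd1a and Mxi1 rose, and Ldhb fell. Of these calls, 3 genes lost theirs in some class when 1 replicate was left out: Ankrd37 in DN Tregs without replicate 2 (adjusted p = 0.064) and in Ebi3 Tregs without replicate 2 or 3 (0.186 and 0.14), Mxi1 in IL10 and Ebi3 Tregs without replicate 1 or 3 (0.0572 to 0.217), and Ldhb in IL10 Tregs. Among DN Tregs 24 genes rose and 3 fell of 36 tested, where 12.9% of all 12907 genes tested rose and 10.5% fell. Among IL10 Tregs 26 rose and 1 fell, where 5.56% of all genes rose and 3.77% fell. Among Ebi3 Tregs 25 rose and 1 fell, where 6.24% and 4.01% did. The median log2 difference of the 36 genes was 1.46, 1.48 and 1.26 in DN, IL10 and Ebi3 Tregs, where that of all genes was 0.01, -0.02 and -0.04. With every library of the tumour group above every library of the node group, 23, 26 and 25 genes were higher, against 11.8%, 7.4% and 8.44% of all genes. In bulk libraries, fewer cells of a type and less RNA per cell cannot be told apart. The summed level of the 37 genes was 5784 ± 986 CPM (SD, n = 3) in node DN Tregs and 16210 ± 2519 CPM in tumour DN Tregs. It was 7082 ± 1225 and 18077 ± 2970 CPM in IL10 Tregs, and 7529 ± 1320 and 17384 ± 2412 CPM in Ebi3 Tregs.

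**Figure D1:**
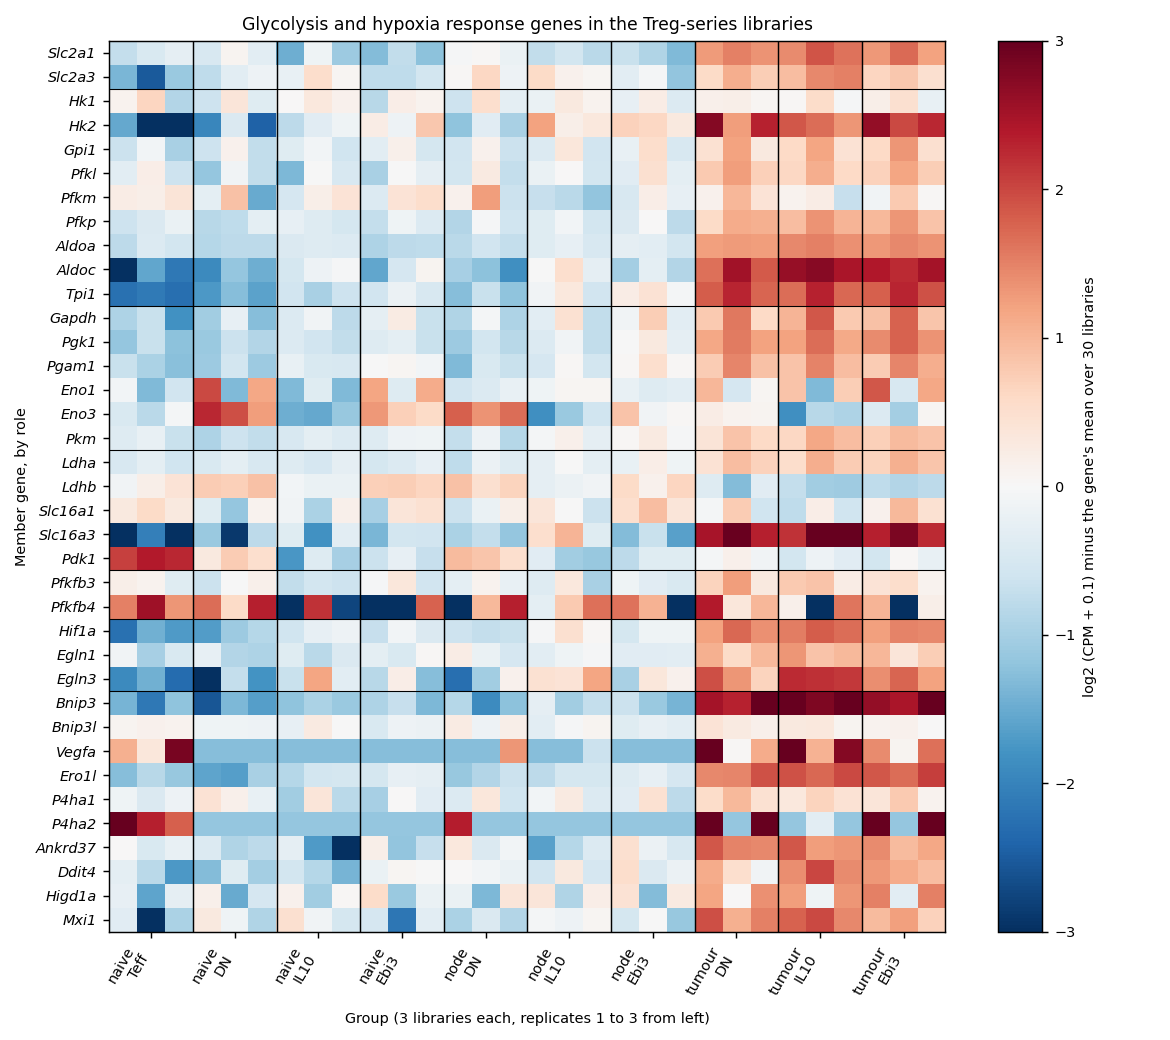
Level of the 37 genes (rows, by role) in each of the 30 Treg-series libraries (columns, by group), as log2 CPM with 0.1 CPM added and minus the gene's mean over the 30 libraries; colours are limited at 3 log2 units either way. The tumour columns stand apart from the others in most rows. Ldhb is lower in tumour than in node Tregs of every class, and Pdk1 and Eno3 are so without overlap in DN Tregs only.

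Both glucose transporters were higher in the tumour. Slc2a1, the main basal transporter GLUT1, stood at 112, 118 and 101 CPM in node DN Tregs (replicates 1 to 3, as in the lists that follow) and at 278, 331 and 294 CPM in tumour DN Tregs. It stood at 68.9, 79.0 and 66.1 CPM in node and 310, 429 and 355 CPM in tumour IL10 Tregs, and at 72.8, 61.3 and 46.4 CPM and 285, 374 and 265 CPM in Ebi3 Tregs. Tumour and node did not overlap in any class, and the log2 differences were 1.56 ± 0.18 (SE, adjusted p = 2.24e-07), 2.52 ± 0.18 and 2.49 ± 0.18. Slc2a3, the high-affinity transporter GLUT3, rose by 1.2 ± 0.28 in IL10 and 1.26 ± 0.28 in Ebi3 Tregs, and its difference of 0.75 ± 0.28 in DN Tregs missed the threshold (adjusted p = 0.0502). Without replicate 3 the calls of Slc2a3 were lost (adjusted p of 0.12 and 0.0642).

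In upper glycolysis 7 of 9 genes rose in DN Tregs and 6 of 9 in IL10 and in Ebi3 Tregs. Hk2, the inducible hexokinase, was low and variable: 2.85, 5.26 and 3.33 CPM in node DN Tregs against 45.2, 16 and 33.6 CPM in the tumour. In IL10 Tregs it stood at 15.4, 7.59 and 8.32 CPM in the node and 24.5, 21.6 and 16.7 CPM in the tumour, and in Ebi3 Tregs at 10.8, 10.3 and 8.21 CPM and 42.1, 26.6 and 32.4 CPM. The groups did not overlap in any class, and the difference passed the test in DN Tregs (3.11 ± 0.72, adjusted p = 0.00206). It was 1.22 ± 0.66 (adjusted p = 0.301) in IL10 and 1.93 ± 0.68 (adjusted p = 0.0708) in Ebi3 Tregs. The site difference was not shown to differ between IL10 and DN Tregs (-1.90 ± 0.95, adjusted p = 0.3). Hk1, the constitutive hexokinase, was not called in any class (0.29 to 0.46). Aldoa, the aldolase with the higher level here, had the smallest SE of the members: 686, 805 and 726 CPM in node DN Tregs against 2798, 2911 and 2839 CPM in the tumour. It rose from 923, 1011 and 860 CPM to 3241, 3388 and 3105 CPM in IL10 Tregs, and from 990, 966 and 811 CPM to 2951, 3249 and 3027 CPM in Ebi3 Tregs. Its log2 differences of 2.07 ± 0.08, 1.97 ± 0.08 and 1.90 ± 0.08 were close in the 3 classes. Its relative Aldoc rose by 3.43 ± 0.36, 2.69 ± 0.35 and 3.30 ± 0.36 from far lower levels (12.8, 10.9 and 7.04 CPM in node DN Tregs, 80.4, 147 and 91.9 CPM in the tumour). Triosephosphate isomerase, Tpi1, differed between the classes in the node: 163, 247 and 170 CPM in node DN Tregs against 365, 488 and 267 CPM in node IL10 and 462, 530 and 377 CPM in node Ebi3 Tregs. In the tumour the classes came together, at 1379, 1935 and 1330 CPM in DN, 1263, 1966 and 1310 CPM in IL10 and 1366, 1908 and 1494 CPM in Ebi3 Tregs. Gpi1 rose by 1.03 to 1.13, Pfkl by 1.08 to 1.38 and Pfkp, the platelet-type phosphofructokinase, by 1.55 to 1.60 over the 3 classes, and muscle-type Pfkm was not called.

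In lower glycolysis Gapdh, Pgk1, Pgam1 and Pkm rose in every class. Gapdh read 440, 795 and 434 CPM in node DN Tregs and 1429, 2474 and 1257 CPM in the tumour. It read 665, 1144 and 493 against 1676, 3037 and 1423 CPM in IL10 Tregs, and 774, 1379 and 663 against 1534, 2806 and 1469 CPM in Ebi3 Tregs. The replicate 2 library was the highest of every one of these groups, which the fit absorbs by its batch term, and node and tumour did not overlap in any class. The log2 differences of Gapdh were 1.74 ± 0.13, 1.59 ± 0.13 and 1.22 ± 0.12, and those of phosphoglycerate kinase Pgk1 were 2.26 ± 0.13, 1.93 ± 0.13 and 1.67 ± 0.13. Eno3, the muscle enolase, fell in DN Tregs: 71.6, 52.6 and 65.9 CPM in the node and 24.1, 22.1 and 21.7 CPM in the tumour (-1.35 ± 0.34, adjusted p = 0.00468). It was not called in IL10 Tregs (5.65, 9.47 and 13.6 CPM against 5.65, 11.5 and 10.8 CPM) or Ebi3 Tregs (26.0 ± 10.0 CPM against 15.8 ± 5.65 CPM, SD, n = 3). Eno1, the main enolase of most tissues, was close to 0 in the Treg series and was not tested. Reads of this gene can be split with a near-identical copy, so its level is uncertain. Gapdh, Pgk1, Pgam1, Aldoa, Ldha and Pkm also have processed copies in the genome, and the rule for counting reads that match several places was not found in the labels.

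At the branch to lactate, Ldha rose and Ldhb fell in every class. Ldha encodes the subunit that favours lactate production, and read 1072, 1612 and 1378 CPM in node DN Tregs against 2444, 3418 and 2921 CPM in the tumour. The pairs were 1506, 1787 and 1477 against 2618, 3861 and 3050 CPM in IL10 Tregs and 1545, 2087 and 1646 against 2854, 3783 and 3236 CPM in Ebi3 Tregs (log2 differences of 1.24 ± 0.11, 1.16 ± 0.11 and 1.07 ± 0.11). Ldhb, the heart-type subunit, fell from 112, 85.5 and 96.3 to 46.6, 24.7 and 47.9 CPM in DN Tregs. The fall was from 50.7, 53.8 and 56.4 to 37.1, 29.6 and 29.0 CPM in IL10 Tregs and from 90.8, 66.1 and 94.4 to 35.7, 32.9 and 35.0 CPM in Ebi3 Tregs. Ldhb differed by -1.19 ± 0.18, -0.59 ± 0.18 and -1.11 ± 0.18. Its call in IL10 Tregs (adjusted p = 0.0371) was lost without replicate 1, 2 or 3 (0.0669, 0.15 and 0.343) and without the replicate block (0.149). The lactate exporter of glycolytic cells, Slc16a3 (MCT4), rose by 3.69 ± 0.49, 2.63 ± 0.46 and 3.83 ± 0.49, from 4.76, 5.62 and 4.06 CPM in node DN Tregs to 51.9, 73.5 and 47.2 CPM in the tumour, and its relative Slc16a1 (MCT1) was not called. Pdk1 did not follow most of the other HIF targets. It read 182, 168 and 134 CPM in node DN Tregs against 89.7, 105 and 87.1 CPM in the tumour, a fall (-0.67 ± 0.21, adjusted p = 0.019) whose call was lost without replicate 2 (0.0774), replicate 3 (0.0958) or the replicate block (0.0573). In IL10 Tregs it read 74.0, 45.3 and 42.4 CPM in the node and 64.5, 84.0 and 74.5 CPM in the tumour, and in Ebi3 Tregs 54.8, 73.1 and 73.1 CPM and 63.7, 96.4 and 80.3 CPM. These groups overlapped and were not called (0.61 ± 0.21, adjusted p = 0.0676, and 0.41 ± 0.21, adjusted p = 0.26). Pfkfb3, which makes the activator of phosphofructokinase, rose by 0.81 to 1.11, and Pfkfb4 was not called. The call of Pfkfb3 was lost without replicate 2 in DN (adjusted p = 0.0922), without replicate 1 or 3 in IL10 (0.0998 and 0.0514) and without each replicate in Ebi3 Tregs (0.0905 to 0.252).

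**Figure D2:**
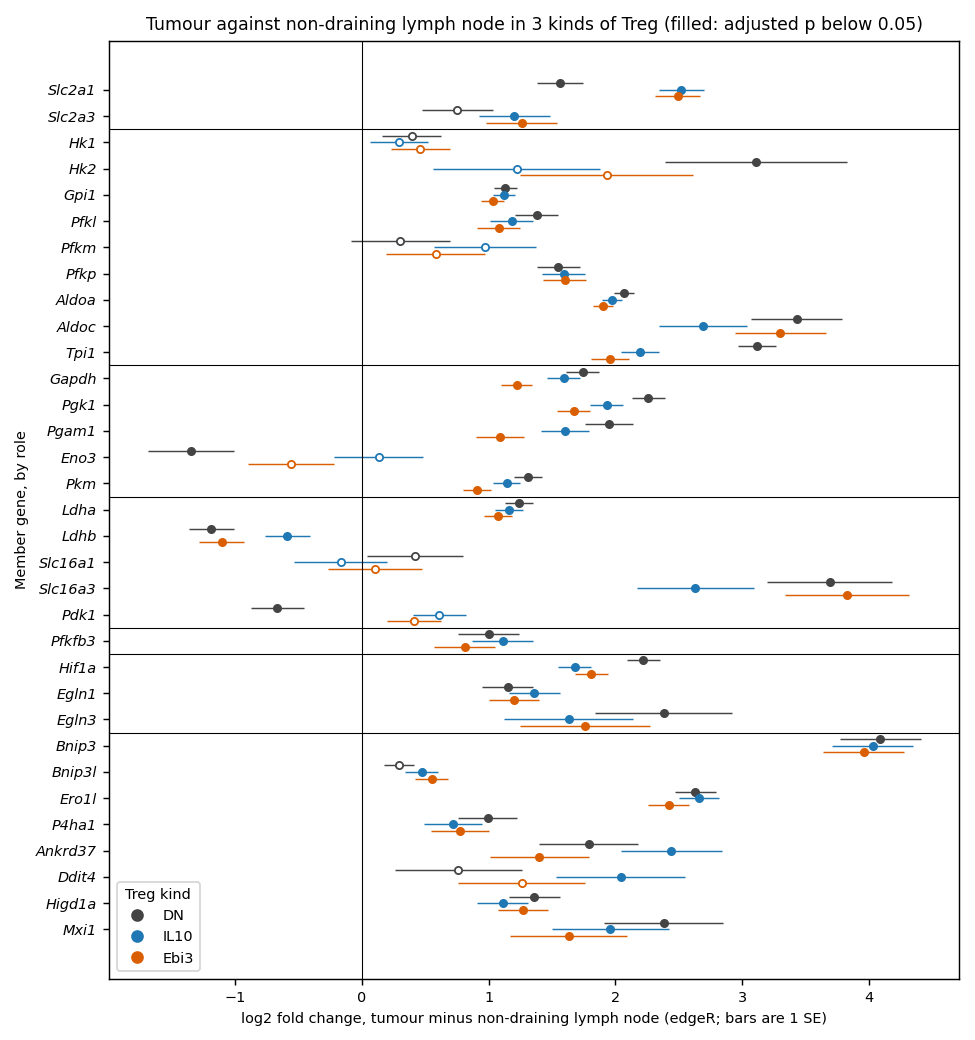
Log2 fold change of each gene between tumour and lymph node (horizontal axis; bars are 1 SE, filled points have an adjusted p below 0.05) in DN, IL10 and Ebi3 Tregs, by role. Most points lie right of 0 in all 3 classes and Ldhb lies left in all 3. The DN points of Slc2a1 and Pdk1 lie left of, and that of Tpi1 right of, the IL10 and Ebi3 points.

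The oxygen sensing genes and most of the other HIF targets were called higher at the RNA level in at least 1 class. Vegfa and P4ha2 were called in none, and Bnip3l and Ddit4 not in every class. Hif1a read 378, 358 and 371 CPM in node DN Tregs against 1361, 1938 and 1524 CPM in the tumour. It read 572, 815 and 603 against 1690, 2059 and 1875 CPM in IL10 Tregs, and 406, 537 and 536 against 1382, 1636 and 1585 CPM in Ebi3 Tregs. Its log2 differences were 2.22 ± 0.13, 1.68 ± 0.13 and 1.81 ± 0.13, and neither IL10 nor Ebi3 Tregs were called different from DN Tregs in this. Egln3, the prolyl hydroxylase that HIF itself induces, was more scattered: 3.51, 8.25 and 18.9 CPM in node DN Tregs against 65.7, 43.1 and 27.5 CPM in the tumour. It read 23.5, 23.0 and 39.3 against 80.8, 79.4 and 75.2 CPM in IL10 Tregs, and 8.66, 21.9 and 18.9 against 45.6, 57.7 and 39.9 CPM in Ebi3 Tregs. Node and tumour did not overlap for either gene, and Egln3 rose by 2.38 ± 0.54, 1.63 ± 0.51 and 1.76 ± 0.51. The calls of Egln3 were lost without replicate 1 in DN Tregs (adjusted p = 0.0837), without each replicate in IL10 Tregs (0.0608 to 0.175) and without replicate 1 or 2 in Ebi3 Tregs (0.142 and 0.0982). Bnip3, a mitophagy receptor, had the largest difference of the 36 genes among those called in each class. It went from 17.3, 8.33 and 13.3 to 177, 155 and 278 CPM in DN Tregs (4.09 ± 0.32, adjusted p = 3.89e-10). The rise was from 25.7, 15.1 and 18.9 to 314, 219 and 332 CPM in IL10 Tregs (4.03 ± 0.32) and from 19.8, 14.4 and 11.7 to 193, 170 and 279 CPM in Ebi3 Tregs (3.96 ± 0.32). Its relative Bnip3l moved far less (0.29 ± 0.12, not called, in DN Tregs; 0.47 and 0.55 in the others). Its calls were lost without each replicate in IL10 (adjusted p of 0.0585 to 0.211) and without replicate 3 in Ebi3 Tregs (0.071). Ero1l, an oxidase of the endoplasmic reticulum, rose by 2.63 ± 0.16, 2.66 ± 0.16 and 2.42 ± 0.16, Ankrd37 by 1.40 to 2.44, Mxi1, an antagonist of MYC, by 1.63 to 2.38 and the mitochondrial protein Higd1a by 1.11 to 1.36. Ddit4, a brake on mTORC1, was called in IL10 Tregs (2.04 ± 0.51, adjusted p = 0.00982), a call lost without each replicate (0.092 to 0.175). Its difference was 0.76 ± 0.50 (adjusted p = 0.295) in DN and 1.26 ± 0.50 (0.126) in Ebi3 Tregs, and neither IL10 nor Ebi3 Tregs were called different from DN Tregs in it (0.358 and 0.858). Vegfa, the vascular growth factor, stayed near the counting limit: 0, 0 and 0.507 CPM in node and 2.36, 0.148 and 0.426 CPM in tumour DN Tregs. It read 0, 0 and 0.0537 against 3.65, 0.399 and 1.54 CPM in IL10 Tregs, and 0 in every node library against 0.541, 0.154 and 0.656 CPM in Ebi3 Tregs. Vegfa was not called in any class. In Ebi3 Tregs, with the node at 0, its tumour mean of 0.451 CPM was 2.31-fold the floor of 3 counts per library (0.195 CPM). Replicate 2 of that tumour group lay below this floor, so no lower bound of a rise holds for every library. Hk1, Pfkm, Slc16a1, Pfkfb4, Vegfa and P4ha2 were called in none of the classes.

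Within families of related genes the balance moved as well. Per kilobase of exon, Bnip3 made up 10.9 ± 2.19% (SD, n = 3) of Bnip3 and Bnip3l together in node DN Tregs and 62.4 ± 8.45% in tumour DN Tregs, with 18% and 71.3% in IL10 and 16.2% and 67.0% in Ebi3 Tregs. Slc16a3 went from 11% ± 3.5 to 54.2 ± 6.14% of the 2 lactate transporters in DN Tregs, from 22.1% to 65.1% in IL10 and from 5.37% to 43.4% in Ebi3 Tregs. Hk2 went from 6.01 ± 0.442% to 30.3 ± 10.8% of the 2 hexokinases in DN Tregs, and from 13.9% to 22.4% and 14.6% to 32.4% in the others. Slc2a1 went from 65.5 ± 4.87% to 76.9 ± 1.74% of the 2 glucose transporters in DN Tregs, from 53.6% to 74.1% in IL10 and from 62.0% to 79.1% in Ebi3 Tregs. These shares restate the levels above and carry no test of their own.

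**Figure D3:**
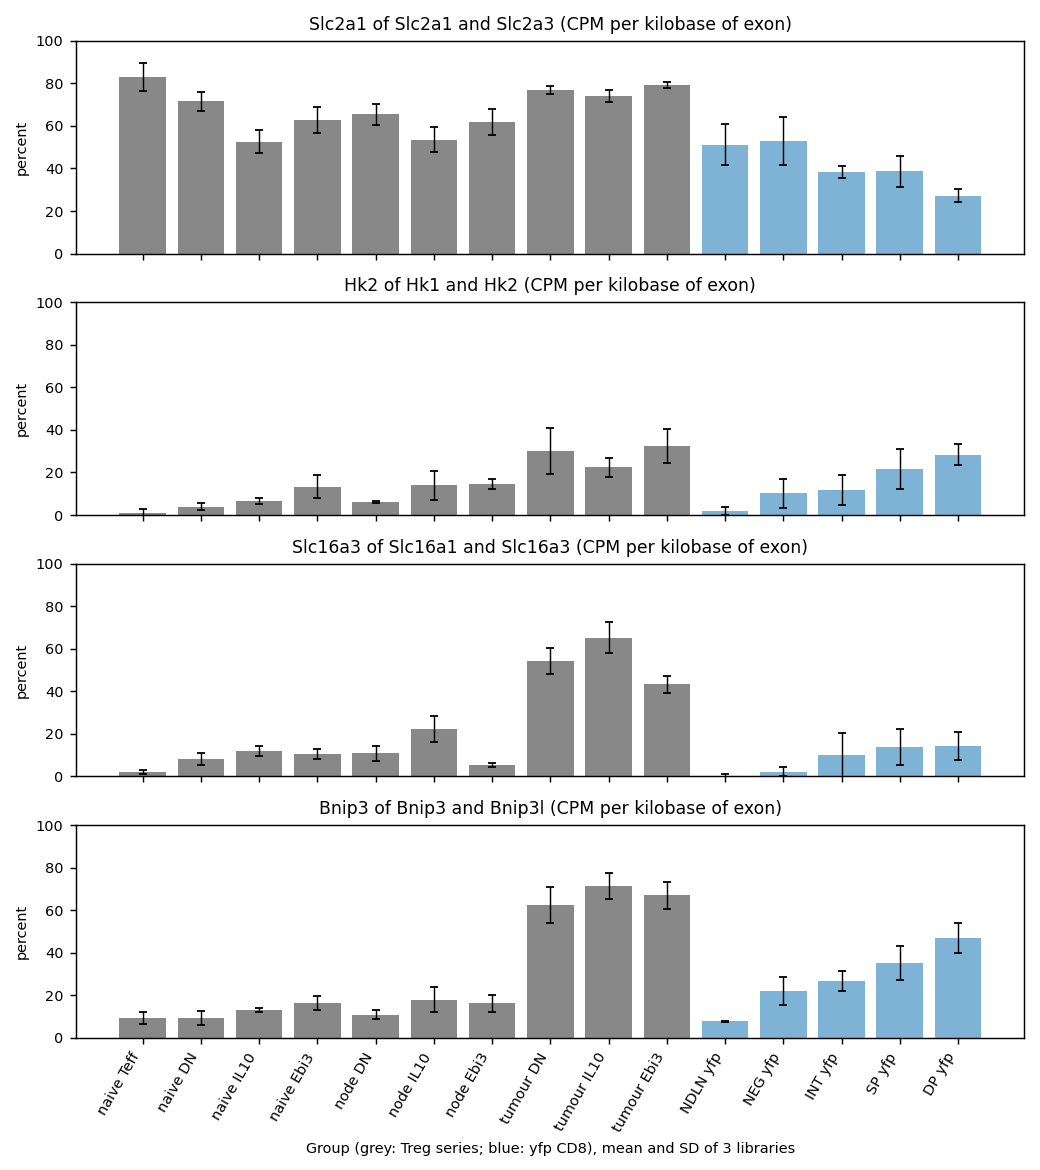
Share of one gene in the summed level of a pair per kilobase of exon (vertical axis, percent; bars are group means and error bars the SD of 3 libraries), for the Treg series in grey and the yfp CD8 populations in blue. Slc16a3, Bnip3 and Hk2 take larger shares in tumour than in node Tregs, and Slc2a1 takes a smaller share in DP than in NDLN CD8 cells (27.3% against 51.2%).

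The next question was whether cytokine-producing Tregs differ from DN Tregs at one site. In the tumour no member was called by edgeR between IL10 and DN (0.837% of all genes were called), between Ebi3 and DN (0.713%) or between IL10 and Ebi3 Tregs (2.84%). DESeq2 and limma also called 0 in each. At an unadjusted p below 0.05 edgeR gave 7, 0 and 4 members. The share of all genes at that limit was not counted, here or for later counts at an unadjusted p. Such counts can therefore not be set against all genes. In the node and in the naive source IL10 and Ebi3 Tregs differed from DN Tregs, with enzyme genes higher and Slc2a1, Eno3 and Pdk1 lower. Node IL10 Tregs had 9 members higher and 5 lower than node DN Tregs (16.2% of all genes called), and node Ebi3 Tregs 8 and 4 (13%). The counts were 9 and 4 in naive IL10 Tregs (17.8%) and 6 and 3 in naive Ebi3 Tregs (12.8%). The 2 comparisons at a site share their DN libraries. When 1 replicate was left out, the 14 calls of node IL10 Tregs came to between 7 and 11 (8 without replicate 1, 7 without replicate 2). The 12 of node Ebi3 Tregs came to 7 without replicate 3, and the 13 of naive IL10 Tregs came to 8 without replicate 3.

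The genes higher in IL10 and Ebi3 Tregs outside the tumour were enzymes and Hif1a. Tpi1 was higher than in DN Tregs by 0.95 ± 0.14 in node IL10, 1.19 ± 0.14 in node Ebi3, 0.85 ± 0.14 in naive IL10 and 1.05 ± 0.14 in naive Ebi3 Tregs, Gapdh by 0.44, 0.68, 0.44 and 0.55, and Pkm by 0.52, 0.61, 0.36 and 0.46. Hif1a was higher by 0.82 ± 0.13 in node IL10, 0.86 ± 0.13 in naive IL10 and 0.72 ± 0.13 in naive Ebi3 Tregs, and its 0.34 ± 0.13 in node Ebi3 Tregs was not called (adjusted p = 0.0832). Aldoc (1.39 and 1.30) and Egln3 (1.54 and 1.94) were called higher in IL10 Tregs of the node and the naive source and not in Ebi3 Tregs, and whether the classes differ in them was not tested. The genes lower than in DN Tregs were Slc2a1 (-0.63, -0.92, -0.61 and -0.94 in the order above), Eno3 (-2.70 ± 0.36, -1.35 ± 0.34, -3.28 ± 0.37 and -1.07 ± 0.34) and Pdk1 (-1.57, -1.33, -1.52 and -1.14). Naive Eno3 levels show the spread behind these values: 99.0, 79.0 and 49.4 CPM in DN, 7.41, 7.01 and 9.33 CPM in IL10 and 50.8, 33.8 and 31.0 CPM in Ebi3 Tregs. Ldhb was lower in IL10 Tregs of both places (-0.86 ± 0.18 and -0.93 ± 0.18). Of these genes, Tpi1 and Pdk1 were called in all 4 comparisons whichever replicate was left out. Slc2a1 lost its call without replicate 1 or 3 in node IL10 (adjusted p of 0.0564 and 0.113) and naive IL10 (0.0953 and 0.183) and without replicate 3 in node Ebi3 Tregs (0.056). Gapdh lost it without replicate 2 in node IL10 (0.179) and without replicate 1 or 3 in naive IL10 Tregs (0.0984 and 0.11), and Pkm without each replicate in naive IL10 (0.06 to 0.161) and without replicate 1 in naive Ebi3 Tregs (0.054). Eno3 lost it without replicate 2 or 3 in node Ebi3 (0.126 and 0.0924) and without each replicate in naive Ebi3 Tregs (0.0647 to 0.296). In IL10 Tregs Ldhb lost it in the node without replicate 1 (0.0624), Aldoc in the node without replicate 2 or 3 (0.119 and 0.06) and in the naive source without replicate 3 (0.0858). Egln3 lost it in the node without replicate 1 or 2 (0.162 and 0.145) and in the naive source without replicate 2 (0.0587).

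Whether the tumour-to-node difference itself differed between classes was tested as an interaction, and the 2 interactions share the DN libraries. For IL10 against DN Tregs 3 members were called, against 4.49% of all genes. The site difference was larger for Slc2a1 (0.95 ± 0.25, adjusted p = 0.0232) and Pdk1 (1.28 ± 0.29, adjusted p = 0.00956) and smaller for Tpi1 (-0.93 ± 0.20, adjusted p = 0.00565). For Ebi3 against DN Tregs 1 member was called against 1.61% of all genes, Tpi1 (-1.16 ± 0.20, adjusted p = 0.00165), while Slc2a1 (0.93 ± 0.25, adjusted p = 0.0544) and Pdk1 (1.08 ± 0.29, adjusted p = 0.0598) missed the threshold. Each of these rests on few libraries. Slc2a1 lost its call whichever replicate was left out (adjusted p of 0.0655, 0.106 and 0.197 without replicates 1, 2 and 3), and Pdk1 lost its call without replicate 2 or 3 (0.137 and 0.2). Tpi1 lost both calls without replicate 1 (0.13 for IL10 and 0.0923 for Ebi3 Tregs). Without the replicate block the adjusted p was 0.152 for Slc2a1, 0.0451 for Pdk1, and 0.108 (IL10) and 0.0703 (Ebi3) for Tpi1.

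Between the nondraining node and the naive source few differences were detected. Of the members, edgeR called 0 in DN Tregs (0.0852% of all genes), 0 in IL10 Tregs (0.0542%) and 1 in Ebi3 Tregs (0.00775%): Aldoa, higher in the node by 0.47 ± 0.08 (adjusted p = 0.038). Unadjusted p-values below 0.05 numbered 5 in DN and 5 in IL10 Tregs, DESeq2 called 1 and 2 there (0.752% and 0.403% of all genes), and limma 0 in both. The call of Aldoa was lost when the libraries of any 1 replicate number were left out and without the replicate block. Within the naive source, DN Tregs had 6 members higher and 1 lower than Teff, where 12.2% of all genes were called. Eno3 (2.36 ± 0.36), Slc16a3 (1.64 ± 0.52), Slc2a3 (1.16 ± 0.28), Tpi1 (0.70 ± 0.14), Ldhb (0.64 ± 0.18) and Hif1a (0.63 ± 0.13) were higher. Pdk1 was lower: 392, 486 and 453 CPM in Teff against 116, 160 and 133 CPM in DN Tregs (-1.68 ± 0.21, adjusted p = 1.7e-06). The calls of Hif1a (without replicate 3, adjusted p = 0.0958), Ldhb (without replicate 1 or 3, 0.216 and 0.104), Slc16a3 (without replicate 1 or 3, 0.34 and 0.451) and Slc2a3 (without replicate 2, 0.0845) were lost.

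Other genes of the same pathways were counted in lists. Between node and tumour 12.9%, 5.56% and 6.24% of all genes tested rose in DN, IL10 and Ebi3 Tregs, and 10.5%, 3.77% and 4.01% fell. Of 29 further hypoxia genes tested, 12, 10 and 7 rose and 0 fell between node and tumour in DN, IL10 and Ebi3 Tregs. The lipid droplet gene Hilpda rose by 3.2 ± 0.26, 4.34 ± 0.27 and 4.04 ± 0.27, and the transcriptional repressor Bhlhe40 by 4.39 ± 0.49 in IL10 and 3.17 ± 0.46 in Ebi3 Tregs. Of 29 further genes of sugar and pyruvate metabolism, 4 rose and 3 fell in DN, 2 and 3 in IL10 and 3 and 1 in Ebi3 Tregs. In DN Tregs these counts lay near the shares of all genes. The glycogen pathway genes Pgm2 (1.62, 1.14 and 1.09) and Ugp2 (1.15, 0.60 and 0.99) rose, and Pdha1, a subunit of pyruvate dehydrogenase, fell (-0.70, -0.55 and -0.45). Of 21 regulators of glucose use, 3 rose and 6 fell in DN, 1 and 3 in IL10 and 1 and 4 in Ebi3 Tregs. Arrdc4, which responds to sugar phosphates, rose in every class (2.13, 1.53 and 1.36), and in DN Tregs Myc (-1.19), a driver of glycolytic genes, and Foxo1 (-1.05) fell.

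Levels of other cell types and of cell division stood beside these differences as follows; their part in the results was not tested. In the proliferation list of 18 genes, 9 rose in DN Tregs between node and tumour (median 1.41) and 0 in IL10 and 0 in Ebi3 Tregs by edgeR (medians of -0.19 and -0.03). Its summed level was 1117 ± 288 CPM in node DN, 2841 ± 36.0 CPM in node IL10 and 4944 ± 738 CPM in node Ebi3 Tregs. In the tumour it was 2400 ± 478, 2285 ± 654 and 4260 ± 1247 CPM. In the node 11 and 16 of its 18 genes were higher in IL10 and Ebi3 than in DN Tregs, so the proliferation genes moved with Tpi1, Gapdh and Pkm there. Among pigment cell markers, the melanin enzyme Tyrp1 was at 0 in every node group, with group means of 3.21 (DN), 5.84 (IL10) and 2.44 CPM (Ebi3) in the tumour. Dct was at 0 in the node too, with 2.09, 1.34 and 1.35 CPM in the tumour. The summed pigment list was 26.2, 13.1 and 12.8 CPM in the node and 15, 21.7 and 12.9 CPM in the tumour, with Sox10 at 0 throughout. Most of the node sums was Pmel, which moved the other way from Tyrp1 and Dct. Its mean was lower in the tumour than in the node in every class (8.91 against 25.1 CPM in DN Tregs). Its highest mean in the Treg series was in Teff of the naive source (34.9 CPM). The sum therefore does not follow Tyrp1 and Dct. Summed myeloid markers ran from 0.711 to 205 CPM over the Treg series with a median of 9.09 CPM; the highest was node Ebi3 replicate 3, without which 20 members rose and 1 fell between node and tumour in Ebi3 Tregs. Summed B cell markers ran from 0.617 to 84.3 CPM with a median of 38.2 CPM, most of it Cd79b in the Treg groups. Cd79b stood at 29.6, 47.6 and 61.2 CPM in node DN, IL10 and Ebi3 Tregs, at 25.1, 24.3 and 36.6 CPM in the tumour and at 40.5, 58.6 and 68.2 CPM in the naive source, while Pax5 was at 0 throughout. Summed stromal markers ran from 0 to 9.22 CPM, with Pdgfra at 0 and a highest group mean of Col1a1 of 3.52 CPM, in naive Ebi3 Tregs.

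The CD8 series asks how these genes change from the node through the sorted stages of exhaustion. In yfp cells the summed level of the 37 genes stood at 3948 ± 687 CPM (SD, n = 3) in NDLN, 5867 ± 1041 in NEG, 6888 ± 434 in INT, 10531 ± 948 in SP and 13303 ± 2134 CPM in DP cells. All 37 genes were tested; steps that meet in a population share its libraries, and reads of Eno1 are uncertain here too. Between NDLN and NEG 7 rose and 0 fell (1.56% of all genes called), between NEG and INT 1 rose (0.938%), and between INT and SP 8 rose (4.89%). Between SP and DP 0 were called by edgeR (1.21%; 9 at an unadjusted p below 0.05, 3 by DESeq2, where 3.03% of all genes were called, and 0 by limma). Over the full span from NEG to DP 20 rose and 2 fell, where 17.2% of all genes rose and 16% fell. The median difference of the members was 1.09 and that of all genes 0.02. The single steps rest on few libraries. The 7 calls of the first step became 2 without replicate 1 and 1 without replicate 3, and the 1 call of the second was lost without each replicate. The 8 calls of the third became 1, 3 and 1 without replicates 1, 2 and 3.

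**Figure D4:**
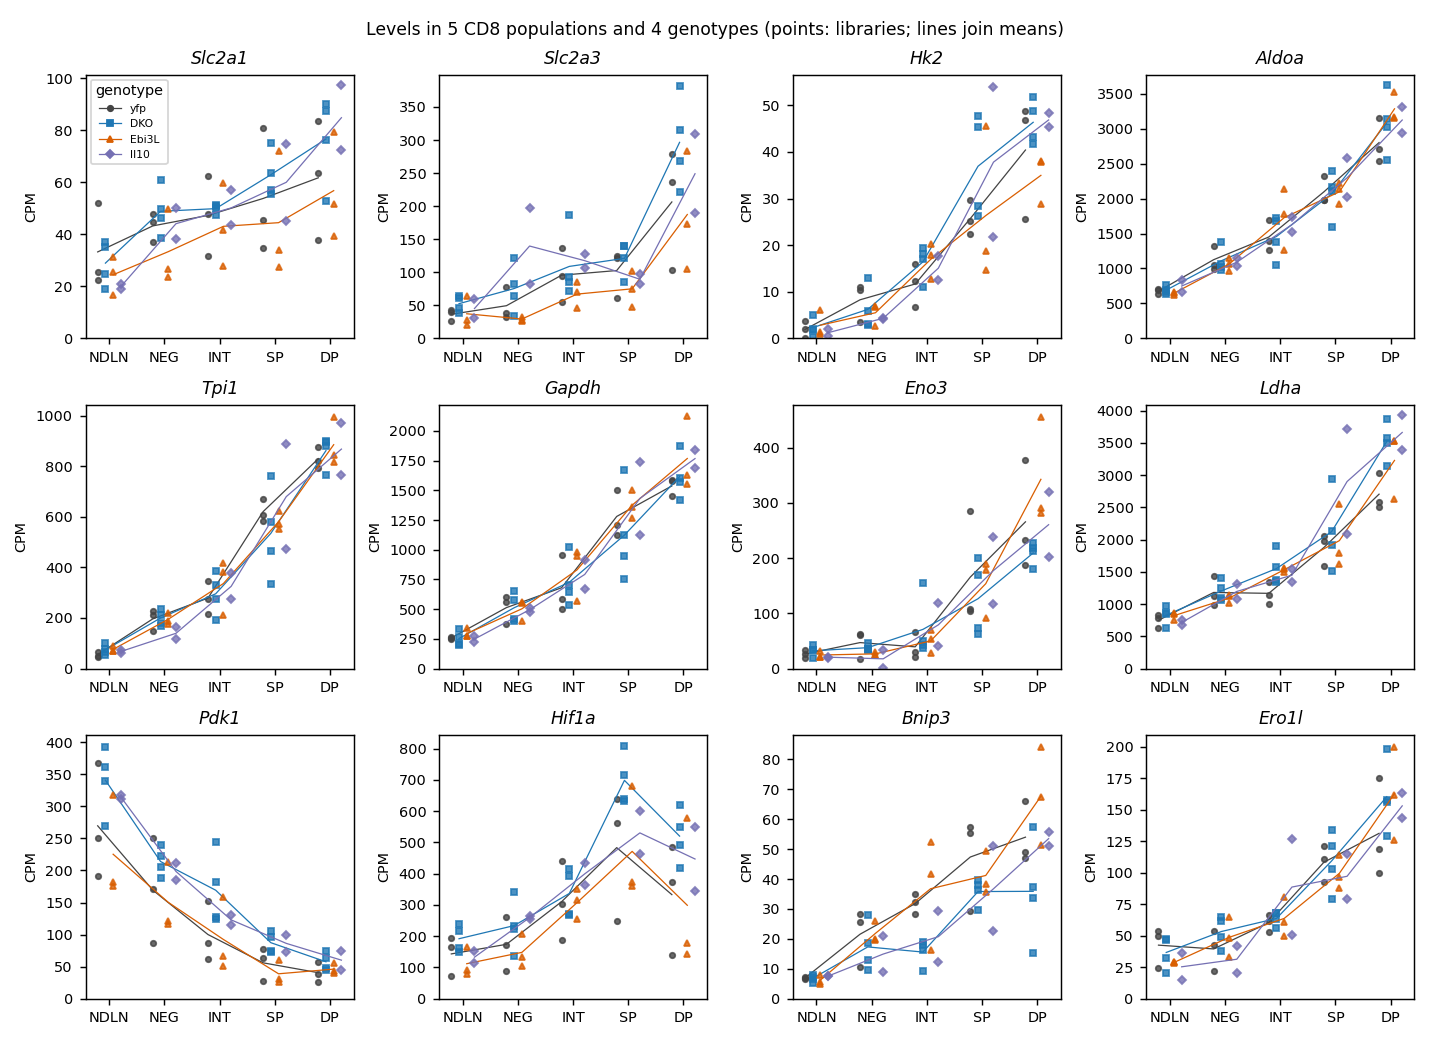
Level of 12 genes of the set (vertical axis, CPM from 0) in the 5 CD8 populations, NDLN to DP; points are libraries, colours and shapes are genotypes, and lines join the means of a genotype. Aldoa, Tpi1, Gapdh and Ldha have their highest mean in DP cells of each genotype, and the mean of Hif1a is highest in SP cells.

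The rise of the enzymes was spread over the populations. In yfp cells Aldoa read 700, 694 and 631 CPM in NDLN (replicates 1 to 3), 1326, 994 and 1056 CPM in NEG, 1396, 1258 and 1696 CPM in INT, 2320, 1985 and 1984 CPM in SP and 3154, 2709 and 2539 CPM in DP cells. Gapdh read 259, 269 and 246 CPM, then 601, 377 and 561, 585, 499 and 956, 1211, 1125 and 1504, and 1584, 1450 and 1577 CPM in the same order. For both genes NDLN lay below every tumour population and DP above NEG without overlap, while NEG and INT overlapped. Ldha read 789, 830 and 628 CPM in NDLN, 1432, 981 and 1129 in NEG, 1143, 1009 and 1349 in INT, 1983, 1593 and 2059 in SP and 3027, 2578 and 2512 CPM in DP cells, and its NEG and INT levels were not shown to differ. From NEG to DP the log2 differences were 1.35 ± 0.14 for Aldoa, 1.63 ± 0.18 for Gapdh, 2.11 ± 0.19 for Tpi1 and 1.23 ± 0.16 for Ldha. Tpi1 led the step from NDLN to NEG as well (1.91 ± 0.19, adjusted p = 8.33e-05; 51.0, 66.8 and 47.5 CPM against 229, 148 and 213 CPM), with Bnip3 (1.73 ± 0.36) and Gapdh (1.05 ± 0.18). At that step Tpi1 was the 1 member called whichever replicate was left out. Hk2 was 1.94, 3.77 and 0 CPM in NDLN, 11.1, 3.42 and 10.3 in NEG, 15.9, 6.78 and 12.3 in INT, 25.1, 29.7 and 22.3 in SP and 48.8, 46.9 and 25.5 CPM in DP cells. SP and DP lay above all earlier libraries, and the NEG to DP difference of 2.20 ± 0.89 was not called (adjusted p = 0.0755).

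From NEG to DP in yfp cells Slc2a3 was called and Slc2a1 was not. Slc2a1 in yfp cells read 51.8, 25.3 and 22.5 CPM in NDLN, 44.7, 47.7 and 37.2 in NEG, 47.8, 62.3 and 31.6 in INT, 45.5, 80.9 and 34.8 in SP and 83.4, 63.7 and 37.9 CPM in DP cells. It overlapped from step to step and was not called from NEG to DP (0.48 ± 0.28, adjusted p = 0.203). Slc2a3 read 40.2, 42.4 and 26.7 CPM in NDLN, 77.2, 32.7 and 38.3 in NEG and 279, 236 and 104 CPM in DP cells (2.00 ± 0.27, adjusted p = 8.35e-05). Per kilobase, Slc2a1 was 51.2 ± 9.51% of the pair in NDLN and 27.3 ± 3.06% in DP cells. Slc16a3 rose by 3.52 ± 1.29 from NEG to DP, a call lost without replicate 2 (adjusted p = 0.229), and Eno3 by 2.50 ± 0.46, from 62.5, 18.1 and 60.5 to 187, 232 and 378 CPM.

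Pdk1 fell along the series. It read 368, 250 and 191 CPM in NDLN, 171, 250 and 87.0 in NEG, 152, 86.3 and 62.1 in INT, 62.9, 78.1 and 27.1 in SP and 57.4, 38.8 and 25.8 CPM in yfp DP cells, and was lower in DP than in NEG cells (-1.97 ± 0.26, adjusted p = 7.14e-05). The replicate 3 library, which is of another batch than replicates 1 and 2, was the lowest in each population. Ldhb read 2.44, 23.8 and 14 CPM in NEG and 2.00, 3.98 and 6.99 CPM in DP cells (-1.74 ± 0.62, adjusted p = 0.0422), groups that overlapped, and its call was lost without replicate 2 or 3 (0.42 and 0.121). Hif1a RNA did not peak at the end of the series: 193, 166 and 71.3 CPM in NDLN, 262, 173 and 87.4 in NEG, 440, 302 and 189 in INT, 638, 563 and 249 in SP and 484, 375 and 140 CPM in DP cells. Within each replicate SP was the highest population. Egln3 stayed low, with 0, 1.14 and 2.55 CPM in NDLN, 2.22, 5.92 and 8.55 in NEG, 2.37, 5.34 and 3.55 in INT, 13.9, 4.13 and 4.33 in SP and 9.22, 5 and 2.9 CPM in DP cells, and its NEG to DP difference of 0.16 ± 1.07 was not called. Bnip3 read 6.85, 6.57 and 7.35 CPM in NDLN, 10.5, 28.4 and 25.8 in NEG, 32.2, 28.3 and 34.9 in INT, 57.4, 55.4 and 29.3 in SP and 66.0, 49.0 and 47.0 CPM in DP cells (1.34 ± 0.35 from NEG to DP, lost without replicate 1 with an adjusted p of 0.105). Vegfa was at 0 in the 3 NDLN libraries and at 1.59, 5.57 and 0 CPM in NEG cells, and was not called. It read 0, 1.52 and 0.605 in INT, 3.75, 0 and 2.67 in SP and 1.26, 0.105 and 0.418 CPM in DP cells.

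With all 4 genotypes in a single fit that keeps each source of libraries as a block, a fit added after the data had been seen, the separate steps could be read. From NDLN to NEG 23 members rose and 2 fell (14.9% of all genes called), and from NEG to INT 12 rose and 1 fell (13%). From INT to SP 18 rose and 1 fell (27.6%), and from SP to DP 14 rose and 2 fell (19.8%). Over the whole span from NEG to DP 28 rose and 2 fell (53.4%). Medians over the steps were 0.64, 0.36, 0.58 and 0.36. Hif1a rose by 0.57 ± 0.09, 0.74 ± 0.09 and 0.63 ± 0.09 over the first 3 steps and fell by 0.45 on the log2 scale from SP to DP (SE 0.09, adjusted p = 0.000426). Pdk1 went by -0.58 ± 0.12, -0.69 ± 0.13 and -0.91 ± 0.13 and did not pass the test at the last step (-0.21 ± 0.13, adjusted p = 0.28). Slc2a3 rose most from SP to DP (1.33 ± 0.17), after 0.64 ± 0.17 and 0.61 ± 0.17 at the first 2 steps and no call between them (-0.05 ± 0.17). Slc2a1 rose from NDLN to NEG (0.75 ± 0.14, adjusted p = 7.92e-05) and from SP to DP (0.43 ± 0.13, adjusted p = 0.0192), and by 0.72 ± 0.13 over the span from NEG to DP. Tpi1 rose at every step, by 1.51 ± 0.10, 0.69 ± 0.10, 0.94 ± 0.10 and 0.62 ± 0.10, and Ldha by 0.65, 0.24, 0.58 and 0.67. Hk2 rose by 1.84 ± 0.40 and 1.33 ± 0.37 at the first 2 steps and was not called at the others.

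DP cells differed from NEG cells in the same direction in each genotype for most members. In DKO cells 25 rose and 1 fell (21.4% and 20% of all genes) and in Ebi3L cells 26 rose and 1 fell (17.6% and 15.7%). In Il10 cells, with 2 libraries a group, 12 rose and 1 fell (5.13% and 4.94%). Member medians were 1.09 in yfp, 1.06 in DKO, 1.52 in Ebi3L and 1.23 in Il10 cells, where all genes had 0.02 in yfp and 0.12 in Il10 cells. Aldoa in DKO cells rose from 971, 1069, 1022 and 1378 CPM in NEG to 3142, 3019, 2547 and 3624 CPM in DP. It rose in Ebi3L cells from 970, 1153 and 1065 to 3521, 3157 and 3173 CPM, and in Il10 cells from 1034 and 1145 to 3309 and 2938 CPM. Its log2 differences of 1.35, 1.47, 1.68 and 1.49 in yfp, DKO, Ebi3L and Il10 were close to each other. Hk2 rose from 5.95, 3.1, 2.88 and 12.9 to 51.7, 43.3, 48.8 and 41.6 CPM in DKO cells (2.86 ± 0.54). The rise was from 6.92, 6.82 and 2.75 to 38.1, 28.9 and 37.9 CPM in Ebi3L cells (2.77 ± 0.51) and from 4.41 and 4.20 to 45.4 and 48.3 CPM in Il10 cells (3.45 ± 0.74). Pdk1 fell in every genotype, from 239, 223, 205 and 189 to 62.9, 48.1, 45.2 and 74.4 CPM in DKO cells (-1.90 ± 0.20). The fall was from 214, 121 and 116 to 55.7, 42.9 and 40.1 CPM in Ebi3L (-1.58 ± 0.19) and from 212 and 185 to 45.5 and 74.9 CPM in Il10 cells (-1.76 ± 0.29). NEG and DP did not overlap for these 3 genes in these genotypes. Slc2a1 rose by 0.65 ± 0.21 in DKO and 0.85 ± 0.24 in Ebi3L cells, calls lost without replicate 1 or 2 (adjusted p of 0.132 and 0.062 in DKO, 0.0817 and 0.069 in Ebi3L), and differed by 0.92 ± 0.34 in Il10 cells (adjusted p = 0.126). P4ha2, a collagen prolyl hydroxylase, was at 0 in all 4 DKO NEG libraries and at 5.96, 14, 8.75 and 7.51 CPM in DP, at least 67.6-fold higher against the floor of 3 counts per library.

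**Figure D5:**
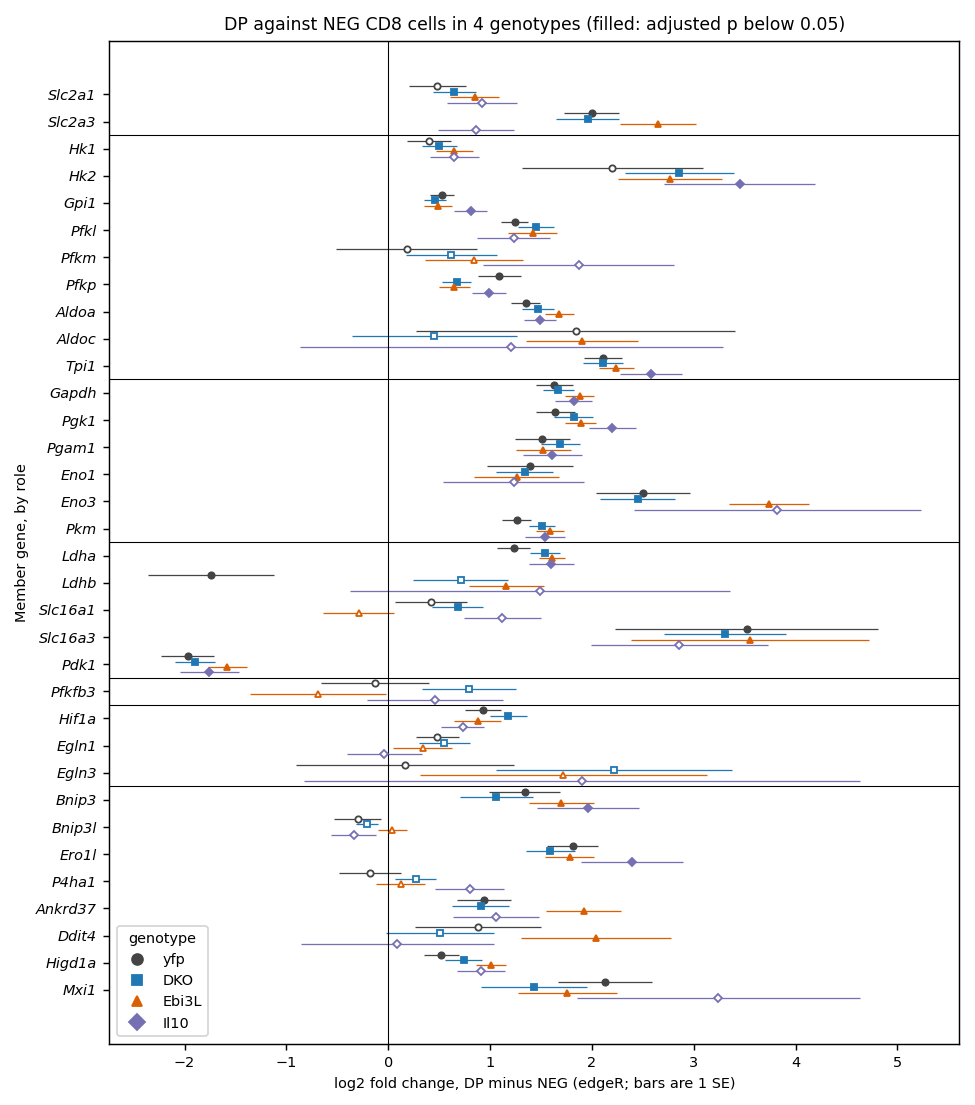
Log2 fold change of each gene from NEG to DP (horizontal axis; bars are 1 SE, filled points have an adjusted p below 0.05) in the 4 genotypes, by role. Pdk1 lies left of 0 in all 4 genotypes, and Ldhb lies left in yfp and right in Ebi3L cells, with wide bars.

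Ldhb was the 1 member called in opposite directions. It fell in yfp cells and rose in Ebi3L cells, from 4.39, 9.71 and 7.69 to 7.63, 15.5 and 25.6 CPM (1.16 ± 0.37, adjusted p = 0.0257), both from low and overlapping levels. The Ebi3L call was lost without replicate 2 or 3 (adjusted p of 0.123 and 0.202), as the yfp call was (0.42 and 0.121). The difference between these genotypes was not called (2.39 ± 1.39, adjusted p = 1), and the fit of all 4 genotypes gave 0.42 ± 0.37 (adjusted p = 0.368). From NDLN to NEG 15 members rose in DKO cells (5.58% of all genes called), 9 rose and 1 fell in Ebi3L cells (1.44%) and 0 were called by edgeR in Il10 cells (0.299%; 13 at an unadjusted p below 0.05, 8 by DESeq2, where 2.83% of all genes were called, and 0 by limma). The largest of them were Slc16a3 (4.35 ± 0.69) and Aldoc (3.62 ± 0.92) in DKO and Aldoc (2.85 ± 0.58) and Bnip3 (1.89 ± 0.32) in Ebi3L cells, where Ldhb fell (-1.90 ± 0.38). The 15 DKO calls became 6, 9 and 6 without replicates 1, 2 and 4, Aldoc among those lost, and the 10 Ebi3L calls became 6, 1 and 3 without replicates 1, 2 and 3. Tpi1 was the 1 member called in Ebi3L cells in each of these.

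Loss of the cytokines in Tregs gave no called difference in these genes in the CD8 cells. In the 15 comparisons of a mutant genotype with yfp within a population, edgeR called 0 members in each (0%, 0.00775% or 0.00811% of all genes), with 0 to 6 members at an unadjusted p below 0.05. DESeq2 called 0 but for 1 in INT Il10 cells (0.868% of all genes), and limma 0. In DP cells every DKO library lay above every yfp library for 7 members and below for 0 (4.89% and 2.28% of all genes). These counts were 4 and 1 for Ebi3L (2.96% and 3.83%) and 8 and 1 for Il10 cells (12.5% and 5.36%). In SP cells they were 0 and 0 for DKO (4.17% and 1.63%). Hardly any gene was called by edgeR in these comparisons, so equal levels were not shown. Without Il10 replicate 2, edgeR called 2 members between Il10 and yfp NEG cells and 3 in the Il10 interaction that follows, with 1 Il10 library assumed to vary like the other groups. The NEG to DP difference was not called different from yfp for any member either (0% of all genes in each genotype by edgeR; 2, 4 and 5 members at an unadjusted p below 0.05 in DKO, Ebi3L and Il10, and 0 by DESeq2 and by limma). For Aldoa that interaction was 0.14 ± 0.13, 0.35 ± 0.14 and 0.16 ± 0.15, for Hk2 0.78 ± 0.70, 0.42 ± 0.74 and 1.01 ± 0.82, and for Pdk1 0.06 ± 0.34, 0.39 ± 0.36 and 0.20 ± 0.41. Genotype and batch are only partly separable in these libraries. The SE of Hk2, far above that of Aldoa, means that only a large difference in Hk2 could have been detected. Libraries of batch 3 (yfp replicate 3, Ebi3L replicates 2 and 3) were low in Hk1, Pfkl, Pfkp, Pkm and Hif1a and high in Higd1a.

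Other lists were counted over the span from NEG to DP, in the order yfp, DKO, Ebi3L and Il10. Of all genes tested, 17.2%, 21.4%, 17.6% and 5.13% rose and 16%, 20%, 15.7% and 4.94% fell in that order. Among 29 or 30 further glycolysis genes tested, 9, 11, 10 and 2 rose and 2, 3, 1 and 0 fell. Gpd2, the mitochondrial glycerol phosphate dehydrogenase, rose by 3.70 ± 0.32, 3.53, 3.41 and 3.80, and Pdk3, another pyruvate dehydrogenase kinase, rose by 1.46, 1.61, 1.58 and 1.13 while Pdk1 fell. Among further hypoxia genes 9, 9, 6 and 6 rose and 3, 2, 3 and 0 fell, with Hilpda up by 1.23 in yfp, 2.00 in DKO and 1.84 in Ebi3L cells. Among regulators of glucose use 2, 2, 1 and 1 rose and 7, 12, 10 and 7 fell. Foxo1, which keeps T cells quiescent, fell by 2.78, 2.09, 2.95 and 1.89 on the log2 scale, and Akt1 rose by 1.13, 0.49, 1.10 and 1.24. Proliferation genes moved with the members, 10, 18, 18 and 17 of 18 rising, with a summed level of 725 ± 281 CPM in yfp NDLN, 1526 ± 1039 in NEG and 6934 ± 1592 CPM in DP cells. In yfp cells summed myeloid markers were 4.91 CPM in NDLN, 10.9 in NEG, 56.3 in INT, 29.6 in SP and 12.9 CPM in DP, and summed B cell markers went from 62.0 to 0.735 CPM from NDLN to DP. Most of the myeloid sum in INT was Cd68 (29.6 CPM) and Itgax (25.3 CPM), with Lyz2 at 0.29 CPM and Csf1r at 0. Most of the B cell sum in NDLN was Cd79b (59.9 CPM). DKO replicate 4 had the highest myeloid sums in its tumour populations, from 74.1 to 135 CPM. The part of these genes in the results was not tested.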

How the data were processed

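Tregs and CD8 T cells were sorted in 2 rounds, and cDNA was made with SMART-Seq kits and libraries with Nextera XT, per the labels' protocols. The authors deposited a table of raw read counts per gene; STAR, featureCounts, Subread, limma and mm10 are named in the submitters' processing notes, without versions. The deposited log2 values for 9885 genes of the Treg series (34 of the 37 genes) and 10150 of the CD8 series (35) were filtered and normalised by the authors and were used for the limma alternative. No column lacked a sample (0).

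Counts were tested with edgeR 4.0.16 (TMM scaling, filterByExpr, robust quasi-likelihood, Benjamini-Hochberg at 0.05) in R 4.3.3. The Treg fit held all 30 libraries with batch as a term, since replicate numbers there equal the labelled batch; CD8 populations were fitted within genotype, genotypes within population, both with batch, and interactions with each source (a genotype's libraries in 1 library set) as a block. DESeq2 1.42.0 and limma 3.58.1 were alternatives, beside scaling, the filter, the block and leaving out replicates. The code was tested on simulated data. Deviations of same-numbered Treg libraries correlated with a median r of 0.11 (72 of 135 pairs above 0.1), and those of other pairs with -0.08. In the CD8 series 27 of 30 yfp, 18 of 40 DKO, 17 of 30 Ebi3L and 8 of 20 Il10 pairs exceeded 0.1. This was short of every pair in each genotype, and CD8 numbers were not treated as pairs. Libraries of the same genotype and number came from 1 library set, however. In yfp cells the median r was 0.21 for same-numbered and -0.14 for other pairs. The counts within a genotype leave this pairing out, and a replicate block was run as an alternative. None of 95 replicate pairs agreed within sampling noise. CPM (counts-per-million) used library totals; levels per kilobase used exon lengths. The floors cover counting error only.

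The genes, roles and lists were chosen with earlier results of these data known. Every member could be named; the rule asked for every library of Slc2a1, Hk2, Aldoa, Gapdh, Ldha, Pdk1, Hif1a, Egln3, Vegfa and Bnip3, printed here for node and tumour Tregs and yfp cells and only in part elsewhere, and of up to 3 called members with the largest change in each direction, and from other lists up to 2 called genes with the smallest adjusted p in each direction. Naming beyond this was made after values were seen. Marker lists of other cell types are described by levels only.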

Additional observations from a re-analysis of the deposited data

Results flagged for a closer look

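In the DKO groups of 4 libraries, 1 library stood far from the other 3 for several genes, by the ratio of its gap to the nearest library to the group's range (Dixon's ratio). The highest library stood apart for Eno3 in INT (0.888), Pkm in DP (0.841), Pfkfb4 in DP (0.851), Egln1 in INT (0.943), Egln3 in NDLN (1, a single library above 0), P4ha2 in SP (0.901) and Mxi1 in INT cells (0.87). The lowest stood apart for Tpi1 in DP (0.859), Ldhb in INT (0.83), Egln3 in NEG (0.865) and Vegfa in INT cells (0.831). These are 11 of 183 gene and group combinations (6.01%), where chance gives about 1 in 20. The other groups, of 2 or 3 libraries, were not tested in this way.

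The tumour-to-node difference was called different between Treg classes by an interaction test for 3 genes: Slc2a1 (0.95, IL10 minus DN), Tpi1 (-0.93, IL10 minus DN, and -1.16, Ebi3 minus DN) and Pdk1 (1.28, IL10 minus DN). Of all genes, 4.49% were called for IL10 minus DN and 1.61% for Ebi3 minus DN. Slc2a1 and Pdk1 were lower, and Tpi1 higher, in IL10 than in DN Tregs of the node, and none of the 3 was called between these classes in the tumour. Each of these calls was lost when 1 of the 3 replicates was left out. Each such fit called 1 member for IL10 and 1 for Ebi3 against DN Tregs, but no member was called in all of them.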

How the results depend on the processing

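Counts are of members called, with the value of the analysis reported above in brackets; the cause of the changes was not tested. Without the replicate block, the site differences gave 1 (3) for IL10 and 0 (1) for Ebi3 against DN Tregs, node IL10 against DN 8 (14) and Ebi3 Tregs of node against naive source 0 (1); the block changed no other Treg count by over 1.5 times. With a replicate block in yfp CD8 cells, SP to DP gave 2 (0). The next settings were added after seeing the data. A fit of all 4 genotypes, which differs from the yfp fit both in its libraries and in its block, gave 25 (7 in yfp cells), 13 (1), 19 (8) and 16 (0) over the steps from NDLN to DP and a common NEG to DP difference of Ldhb of 0.42 (-1.74 in yfp cells). Leaving out node Ebi3 replicate 3, high in myeloid markers, gave 21 (26) for Ebi3 Tregs between tumour and node. DESeq2 gave 4 (1) for the Ebi3 site difference; 1 (0), 2 (0) and 2 (1) for node against naive source in DN, IL10 and Ebi3 Tregs; 13 (7), 2 (1) and 3 (0) for NDLN to NEG, NEG to INT and SP to DP in yfp cells; 8 (0) and 21 (13) for NDLN to NEG and NEG to DP in Il10 cells; and 1 (0) for Il10 against yfp INT cells. Limma gave 4 (7) and 6 (10) for NDLN to NEG in yfp and Ebi3L cells. Library totals without TMM gave 0 (1), and no filter on low counts 0 (1), for node against naive Ebi3 Tregs, and no filter 2 (0) for yfp SP to DP. Library totals put the median of all genes between node and tumour at -0.10, -0.18 and -0.20 in DN, IL10 and Ebi3 Tregs, and no member changed direction under any scaling.

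The Treg counts follow with 1 replicate left out in turn. They ranged from 24 to 26 (27), 19 to 22 (27) and 20 to 23 (26) for tumour against node in DN, IL10 and Ebi3 Tregs. For the site differences they were 1 (3) and 1 (1) in each fit, and no member was called in all of these fits. They ranged from 7 to 11 (14) and 7 to 9 (12) for node IL10 and Ebi3 against DN, 8 to 12 (13) and 7 to 9 (9) for the same in the naive source, 0 to 1 (1) for Ebi3 Tregs of node against naive source and 5 to 8 (7) for DN Tregs against Teff. In CD8 cells they ranged in yfp from 1 to 10 (7), 0 (1), 1 to 3 (8) and 18 to 19 (22) for NDLN to NEG, NEG to INT, INT to SP and NEG to DP, in DKO from 6 to 13 (15) and 21 to 25 (26) and in Ebi3L from 1 to 6 (10) and 19 to 21 (27) for NDLN to NEG and NEG to DP. Without Il10 replicate 2, 3 members (0) were called in the Il10 interaction and 2 (0) between Il10 and yfp NEG cells. Leaving out a replicate was not run within Il10 cells, where it leaves no residual degrees of freedom. Called under every alternative were 21 of 27, 18 of 27 and 16 of 26 members for the 3 tumour against node comparisons, and 15 of 22, 19 of 26, 16 of 27 and 10 of 13 for NEG to DP in yfp, DKO, Ebi3L and Il10 cells.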

Other observations

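Tumour IL10 Tregs held 6 members above and 1 below tumour DN Tregs at an unadjusted p below 0.05, none of which passed adjustment over all genes by edgeR. The share of all genes at that unadjusted limit was not counted. Eno3, the muscle enolase, was lower in IL10 and Ebi3 than in DN Tregs outside the tumour and stood in the same order in it, at 24.1, 22.1 and 21.7 CPM in tumour DN, 5.65, 11.5 and 10.8 CPM in IL10 and a mean of 15.8 CPM in Ebi3 Tregs. The difference of IL10 from DN Tregs there was -1.22 ± 0.35 (adjusted p = 0.119 by edgeR). In the CD8 series the same gene had a mean of 47.1 CPM in yfp NEG and 266 CPM in yfp DP cells.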
